A study of Mus musculus with 10 samples.

Results

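The cells compared here are FoxP3+CD25- and FoxP3-CD25- CD4+ T cells sorted from the spleens of the same Satb1-deficient mice, and the comparison asks what accompanies FoxP3 in CD25-negative cells when mouse and genotype are held fixed. The libraries were chosen by their titles, as the GFP+CD25- and the GFP-CD25- library of each KO number, and they are 4 of 10 libraries in the series. All mice were C57BL/6 and carried a Foxp3 reporter in which GFP marks cells that express FoxP3, so that GFP+ is read as FoxP3+ and GFP- as FoxP3-. KO mice were Satb1 F/F with Thpok-cre, and WT mice lacked the deletion. The mice were young adults, and RNA of the sorted cells was sequenced in 50-base reads. Thpok-cre acts from commitment to the CD4 lineage, so by the labels both groups compared, conventional CD4+ T cells as well as FoxP3+ cells, would carry the deletion. KO1 and KO2 were taken as 2 mice, an assumption that rests on the numbering of the labels. Each mouse gave 1 library per population, so every group has n = 2.

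FoxP3 is the transcription factor that defines regulatory T cells (Tregs), which restrain other T cells and which mostly carry CD25, the alpha chain of the IL-2 receptor encoded by Il2ra. CD25-negative cells that express FoxP3 can be Tregs that lost CD25, cells on the way to the Treg fate, or cells that express FoxP3 without the rest of the Treg programme. SATB1 is a nuclear protein that organises chromatin loops, is abundant in thymocytes and naive T cells, and helps set up the enhancers of Treg genes in the thymus.

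Gene counts summed to 6317356 and 9018519 in the KO1 and KO2 FoxP3+CD25- libraries and to 6094952 and 7392967 in the matched FoxP3-CD25- libraries. A count of 3, taken as the floor for a gene at 0, corresponds to 0.485 and 0.328 CPM (counts scaled by TMM-adjusted library size) in the former and to 0.496 and 0.395 CPM in the latter, and floors cover counting error only. In what follows, levels are given in the order KO1 and KO2 FoxP3+CD25- against KO1 and KO2 FoxP3-CD25-, and log2 fold changes are those of FoxP3+CD25- over FoxP3-CD25- with their standard error, from an edgeR quasi-likelihood fit of all 10 libraries with the mouse as a block. FDR is the Benjamini-Hochberg adjusted p over 13796 genes, with 0.05 as the threshold. In bulk RNA, fewer cells of a type and less RNA per cell cannot be told apart. An exact permutation test of 2 against 2 libraries, which ignores the pairing by mouse, cannot go below p = 0.333, so no single gene can pass that test.

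Satb1 (chr17:51736187-51833290, - strand, GRCm38), the deleted gene, stood at 1186 and 993 CPM against 841 and 682 CPM. Both FoxP3+CD25- libraries lay above the non-Treg library of their own mouse (log2 fold change 0.52 ± 0.08, FDR = 0.0034, and FDR = 0.16 without the mouse block). Leaving out any of the 4 libraries ended the call, with FDR = 0.12 without KO1 FoxP3+CD25-, 0.060 without KO1 FoxP3-CD25-, 0.12 without KO2 FoxP3+CD25- and 0.18 without KO2 FoxP3-CD25-. In the WT libraries Satb1 stood at 818 and 881 CPM in FoxP3-CD25- cells and at 379 and 478 CPM in FoxP3+CD25+ cells, so the values of the FoxP3-CD25- libraries labelled KO and WT overlapped. In FoxP3+CD25+ cells the libraries labelled KO, at 598 and 534 CPM, were the higher ones. Counts over a whole gene do not resolve exons and cannot show a deletion that leaves a transcript, so the genotype rests on the label.

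Foxp3 (chrX:7573644-7595245, + strand) was counted at 361 and 318 CPM against 38.9 and 19.5 CPM. Both FoxP3+CD25- libraries lay far above both non-Treg libraries, which the GFP gate selects for (log2 fold change 3.59 ± 0.16, FDR = 8.9e-07). The same transcript reached 739 and 646 CPM in the FoxP3+CD25+ Tregs of the same mice, above the FoxP3+CD25- level in either mouse (log2 fold change of FoxP3+CD25- over FoxP3+CD25+ -1.03 ± 0.14, FDR = 4.8e-04). Il2ra, which encodes the antigen used for the second gate (chr2:11642807-11693193, + strand), was counted at 16.8 and 16.7 CPM against 11.4 and 5.40 CPM. The FoxP3+CD25- libraries were the higher ones in both mice, but the difference did not pass (log2 fold change 1.04 ± 0.29, FDR = 0.069). It was 1.67 and passed without the KO1 FoxP3-CD25- library (FDR = 0.027), and 0.52 without the KO2 FoxP3-CD25- library (FDR = 0.71). Against 627 and 679 CPM in the FoxP3+CD25+ cells, all 4 libraries were low in Il2ra. Cd4, the coreceptor that defines the sorted lineage (chr6:124864692-124888221, - strand), stood at 773 and 711 CPM against 1142 and 1145 CPM. It fell in the FoxP3+CD25- cells of both mice (log2 fold change -0.63 ± 0.07, FDR = 5.0e-04), and it was the only 1 of 15 T cell identity genes to pass, with the CD3 chains, Lck, Zap70, Lat and the T cell receptor constant genes among the other 14 (list median -0.10). Cd3e, a signalling chain of the receptor, was counted at 510 and 464 CPM against 524 and 486 CPM. Sex-linked genes did not separate the 4 libraries, with 1 to 4 counts of Xist and 1527 to 1656 counts of the Y-linked Ddx3y.

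**Figure D1:**
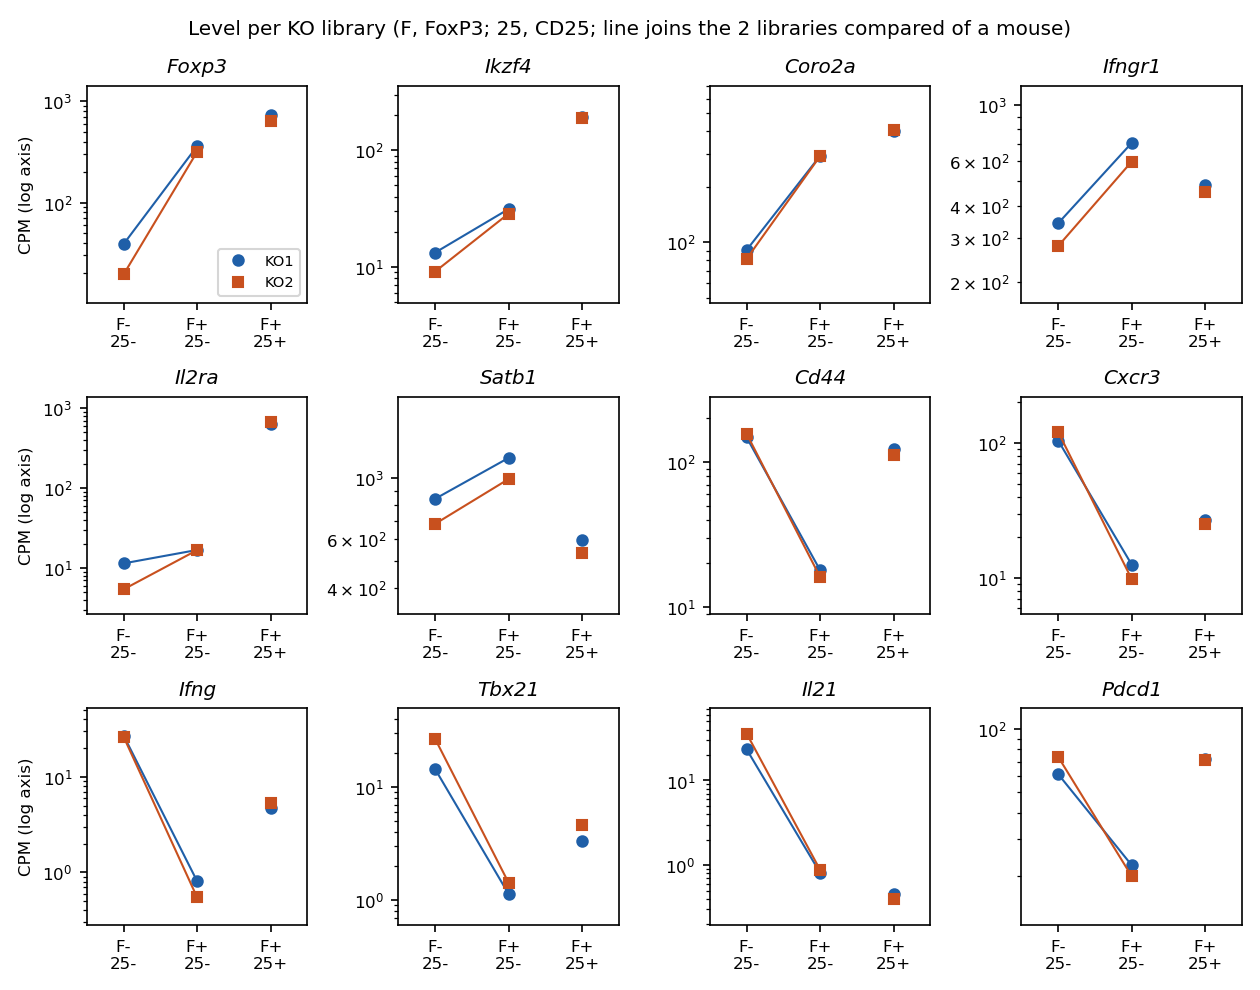
Level of 12 genes in CPM on a log axis, per KO library, for FoxP3-CD25-, FoxP3+CD25- and FoxP3+CD25+ cells, with the mouse by colour and marker and a line joining the 2 libraries compared. Foxp3 rises along each line and Cd44, Cxcr3, Ifng, Tbx21, Il21 and Pdcd1 fall, while Il2ra stays below 20 CPM in the 4 CD25- libraries.

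Between the FoxP3+CD25- and the FoxP3-CD25- cells, 786 of 13796 genes passed the test, 255 of them higher (1.85% of the genes tested) and 531 lower (3.85%), or 5.7% in all. Lower in the FoxP3+CD25- cells were many memory, Th1, follicular helper and homing genes, while genes associated with Tregs moved in both directions. The lower genes also differed by more: 326 of them differed at least 2-fold and 190 at least 4-fold, against 44 and 11 of the higher genes, and the median absolute log2 fold change was 1.34 among the lower and 0.56 among the higher genes. All 786 genes had the same sign in both mice, which their choice by a fit with the mouse block favours. Without the mouse block 230 genes passed, 44 higher and 186 lower, and all of them were among the 786, so the count depends on the pairing of libraries by mouse. Single libraries also moved it: 212 genes passed without KO1 FoxP3+CD25-, 141 without KO2 FoxP3+CD25-, 328 without KO1 FoxP3-CD25-, 150 without KO2 FoxP3-CD25- and 1907 without the libraries of WT mouse 1. DESeq2 gave 489 genes (132 higher and 357 lower), and 4 libraries fitted alone with the block gave 2107 (928 higher and 1179 lower). The balance of higher and lower genes thus depends on the fit too.

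**Figure D2:**
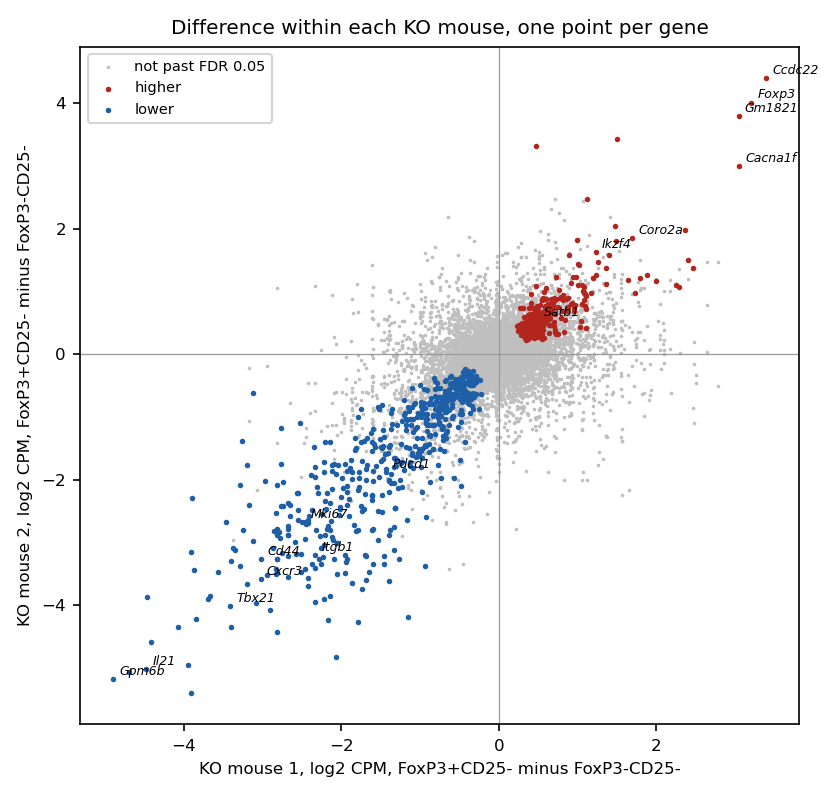
Difference in log2 CPM between the FoxP3+CD25- and the FoxP3-CD25- library of KO mouse 1 (horizontal) and of KO mouse 2 (vertical), one point per gene tested, with genes past FDR 0.05 in red where higher and in blue where lower. The coloured points fall to the lower left and the upper right, with the same sign in both mice for all 786, which the choice of called genes favours.

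The differences within the 2 mice can be set against each other gene by gene. Across all 13796 genes they correlated with a Pearson r of 0.592, and across the 786 called genes with r = 0.928, where genes are not independent replicates and the choice of called genes favours a high value. Of all genes, 9117 had the same sign in both mice. Some genes differed more between the mice than between the populations. Tnfaip3, an inhibitor of NF-kB signalling, was counted at 1850 and 632 CPM against 1279 and 503 CPM. Its KO1 libraries were the higher ones in both populations, and the rise in FoxP3+CD25- cells appeared within each mouse (log2 fold change 0.43 ± 0.09, FDR = 0.02, and FDR = 0.92 without the mouse block, and 0.29 to 0.57 with 1 library left out).

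The 12 higher genes of lowest p began with Foxp3 and had log2 fold changes from 0.73 to 4.07, and all but Irgm2 also passed without the mouse block. Coro2a, which encodes an actin-binding coronin, was counted at 294 and 293 CPM against 90.8 and 81.3 CPM. Both FoxP3+CD25- libraries were far above both non-Treg libraries (log2 fold change 1.77 ± 0.14, FDR = 2.9e-05). Ikzf4, which encodes the Ikaros-family factor Eos, a FoxP3 partner, was counted at 31.4 and 28.7 CPM against 13.2 and 9.09 CPM. The groups did not overlap (log2 fold change 1.44 ± 0.14, FDR = 1.6e-04). Ifngr1, the ligand-binding chain of the interferon-gamma receptor, was counted at 708 and 598 CPM against 341 and 278 CPM, again with no overlap (log2 fold change 1.08 ± 0.10, FDR = 9.9e-05). St8sia6, a sialyltransferase, rose by 1.04 log2 units, Slc2a3, the glucose transporter GLUT3, by 0.89, Tbc1d30, a regulator of Rab GTPases, by 1.48, and Neurl3, a ubiquitin ligase, by 0.93. Irgm2, an interferon-inducible GTPase, was counted at 131 and 192 CPM against 81.2 and 114 CPM. Its KO2 non-Treg library lay close below the KO1 FoxP3+CD25- library, and within each mouse the FoxP3+CD25- library was higher (log2 fold change 0.73 ± 0.08, FDR = 3.0e-04, and FDR = 0.19 without the mouse block). The uncharacterised 2810474O19Rik rose by 0.87. Gm1821, annotated as a pseudogene, had the largest fitted difference of the 12 (4.07). Reads of near-identical copies could be split among them, so its value is uncertain. Gm1821 stood at no more than 1.03 CPM in any library outside the KO FoxP3+CD25- group. It entered the test through that group alone, so no weight is put on its call or its rank.

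Foxp3 and its overlapping neighbour Ccdc22 moved together, and so did the next gene along the chromosome. Ccdc22, a subunit of an endosomal sorting complex, shares 1437 bases with Foxp3, 590 of them in exons of both, and was counted at 25.1 and 18.9 CPM against 2.15 and 0.659 CPM (log2 fold change 4.02 ± 0.30, FDR = 2.9e-05). Since the strand of counting is not stated, its reads cannot be told apart from those of Foxp3. Cacna1f, which encodes a calcium channel subunit best known from the retina, starts 11838 bases past the Foxp3 gene and shares no base with it. It had 45 and 64 counts in the FoxP3+CD25- libraries, 4 and 5 in the FoxP3-CD25- libraries and 73 and 92 in the KO FoxP3+CD25+ libraries, and 0 counts in all 4 WT libraries. The groups compared did not overlap (log2 fold change 3.40 ± 0.41, FDR = 9.5e-04). The WT FoxP3+CD25+ libraries with no Cacna1f count held 5591 and 5229 Foxp3 counts. Farther out, Syp, a synaptic vesicle protein, had 4 and 6 counts against 6 and 9, and Prickle3, a planar polarity protein, 216 and 398 against 245 and 280. On the other side, Ppp1r3f, a phosphatase subunit that overlaps Foxp3, had 37 and 67 counts against 39 and 55, and Gm36995, which also overlaps it, had 6 and 4 against 5 and 0. None of Syp, Prickle3, Ppp1r3f, Gm36995 or Gm14703, an antisense gene with at most 2 counts in each of the 4 libraries, passed the test. Gm14394 and Gm23082 had 0 counts in all 10 libraries, and Flicr, a noncoding RNA within Foxp3, was not analysed here.

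**Figure D3:**
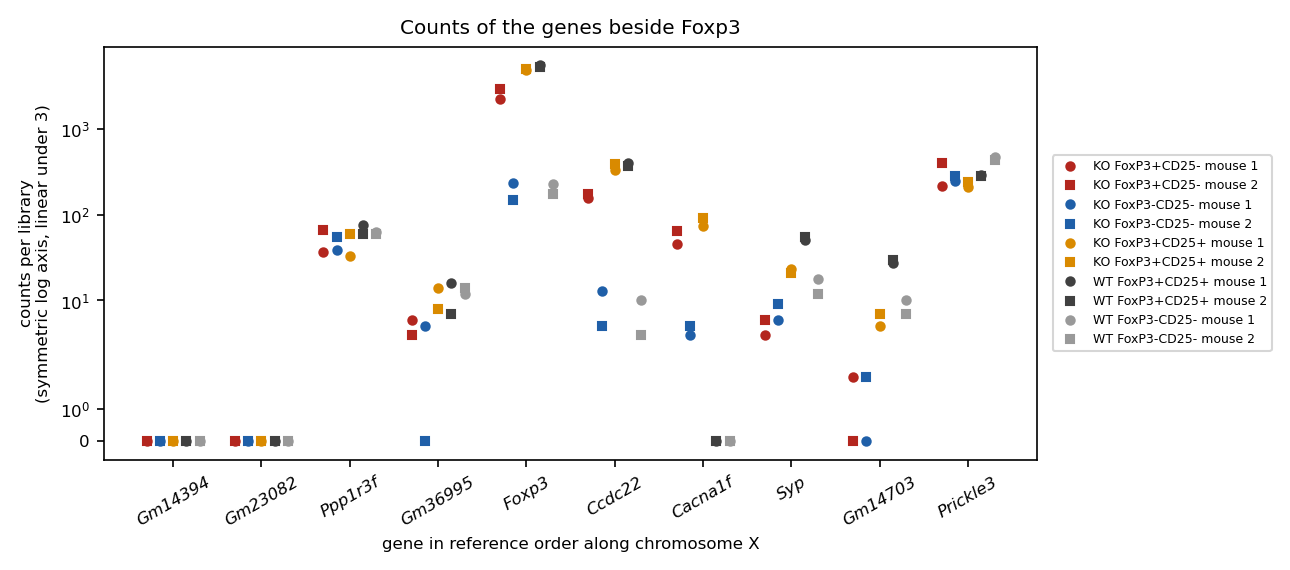
Counts per library, on a symmetric log axis that is linear under 3, for Foxp3 and the genes beside it in reference order along chromosome X, with population by colour and mouse by marker. Foxp3, Ccdc22 and Cacna1f are high in the KO FoxP3+CD25- libraries and low in the KO FoxP3-CD25- libraries, and Cacna1f is at 0 in the 4 WT libraries.

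Promoter windows of Foxp3 are shown because the gene is the one the gate selects on and the strongest rise by FDR. Each window runs from 250 bases before to 50 bases after an annotated start (RefSeq, GRCm38.p6), and Foxp3 has a pair of them, the first at chrX:7579426-7579725, + strand and the next at chrX:7580233-7580532, + strand. The motifs searched were GTAAACA (forkhead), TGTGGT (Runx), TTCNNNGAA (STAT) and TGACTCA (AP-1), each on both strands. They occur in 3.65%, 16.8%, 8.30% and 5.20% of all 32851 promoters of the table. Capitals mark matches, which describe the letters and say nothing of binding. The first window held none of the 4 and the next held 1 match to TTCNNNGAA.
Foxp3 first window: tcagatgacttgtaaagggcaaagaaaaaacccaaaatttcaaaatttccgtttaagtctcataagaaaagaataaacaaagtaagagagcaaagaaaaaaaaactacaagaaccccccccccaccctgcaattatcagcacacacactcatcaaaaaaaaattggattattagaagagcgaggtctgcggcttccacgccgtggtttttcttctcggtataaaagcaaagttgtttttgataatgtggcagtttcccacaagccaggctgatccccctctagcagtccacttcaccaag
Foxp3 next window: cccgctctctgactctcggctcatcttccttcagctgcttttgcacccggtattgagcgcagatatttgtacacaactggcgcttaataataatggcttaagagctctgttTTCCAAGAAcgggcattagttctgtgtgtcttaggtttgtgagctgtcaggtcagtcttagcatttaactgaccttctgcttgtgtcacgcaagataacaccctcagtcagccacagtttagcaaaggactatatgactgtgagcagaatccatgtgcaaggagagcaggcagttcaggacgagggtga

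Genes associated with Tregs moved in both directions. Of 30 tested, 5 rose (Foxp3, Ikzf4, Lrrc32, Cd81 and Ecm1) and 9 fell (Nrp1, Icos, Capg, Entpd1, Tigit, Itgb8, Ikzf2, Rgs16 and Cd83), with 2 and 4 of them passing without the mouse block, and the list median was -0.29 against 0.01 over all genes. Within each mouse the medians had opposite signs, 0.09 in KO1 and -0.61 in KO2. Nrp1, a semaphorin receptor carried by thymus-derived Tregs, was counted at 35.1 and 31.7 CPM against 102 and 180 CPM. Both non-Treg libraries were above both FoxP3+CD25- libraries (log2 fold change -2.05 ± 0.17, FDR = 5.0e-05). Ikzf2, which encodes the Treg factor Helios, was counted at 103 and 74.2 CPM against 129 and 136 CPM. The non-Treg library was the higher one in each mouse and the groups did not overlap (log2 fold change -0.61 ± 0.11, FDR = 0.0093, and FDR = 0.21 without the mouse block, and -0.82 to -0.39 with 1 library left out). Entpd1, the ectonucleotidase CD39, was counted at 1.29 and 1.31 CPM against 5.62 and 14.6 CPM and was lower in both mice (log2 fold change -2.99 ± 0.45, FDR = 0.0027). Icos, a costimulatory receptor, fell from 141 and 162 CPM in the non-Tregs to 72.1 and 57.3 CPM (log2 fold change -1.24 ± 0.13, FDR = 2.4e-04). Lrrc32, which encodes GARP, the cell-surface anchor of latent TGF-beta, had 4.20 and 2.41 CPM against 1.32 and 0 CPM, levels near the floor (log2 fold change 2.40 ± 0.61, FDR = 0.038, and FDR = 0.18 without the mouse block). Leaving out 1 library moved the Lrrc32 value over 1.41 to 7.60, so its size is poorly set.

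Several other Treg genes did not pass. Ctla4, an inhibitory receptor that Tregs use to strip costimulatory ligands, was counted at 128 and 46.1 CPM against 124 and 81.8 CPM and differed more between the mice than between the populations (log2 fold change -0.36 ± 0.19, FDR = 0.4, and -0.81 to 0.02 with 1 library left out). Tnfrsf18, the receptor GITR, was counted at 68.9 and 71.7 CPM against 50.9 and 56.9 CPM (log2 fold change 0.38 ± 0.13, FDR = 0.13), and Izumo1r, the Treg folate receptor 4, at 317 and 193 CPM against 289 and 235 CPM (log2 fold change -0.07 ± 0.14, FDR = 0.87, and -0.33 to 0.17 with 1 library left out). Both genes missed the threshold. Of 15 suppressor effector genes, Lrrc32 and Prf1 rose and Entpd1, Lag3, Lgals1 and Tigit fell, 3 of these 6 also without the mouse block, with a median of -0.36 (-0.12 in KO1 and -0.83 in KO2). In WT, 13 of the 15 were higher in Tregs than in non-Tregs, and Prf1 alone was lower (log2 fold change -2.49 ± 0.13). Il10, which encodes the suppressive cytokine, was near the floor at 2.26 and 0.875 CPM against 2.48 and 4.87 CPM, and Tgfb1 stood at 169 and 148 CPM against 188 and 147 CPM. Il10 and Tgfb1 did not pass. The Il10 levels were close in KO1 and lower in the FoxP3+CD25- cells of KO2. Its log2 fold change ranged over -2.22 to -0.29 with 1 library left out, and a small difference was not detectable at this depth.

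Among 20 genes whose products work with FoxP3 in a complex or on its targets, Ikzf4 rose and Ezh2, Nfatc1, Hif1a and Ikzf2 fell, with Ikzf4 and Ezh2 also passing without the mouse block (median -0.11). Ezh2, the histone H3 lysine methyltransferase that silences genes at FoxP3-bound sites, was counted at 44.6 and 43.3 CPM against 85.3 and 78.1 CPM. The groups did not overlap (log2 fold change -0.89 ± 0.09, FDR = 2.4e-04). Nfatc1, a calcium-dependent factor that pairs with FoxP3, was counted at 258 and 226 CPM against 438 and 424 CPM and fell in both mice (log2 fold change -0.84 ± 0.11, FDR = 8.6e-04, and FDR = 0.08 without the mouse block). Runx1 and Cbfb, the subunits of a complex that FoxP3 binds, stood at 193 and 139 CPM against 197 and 156 CPM and at 252 and 209 CPM against 260 and 217 CPM and did not pass. Of 13 chromatin organisers tested, Satb1 rose and Hmgb2 fell, neither of them without the mouse block, and Ctcf, which sets loop boundaries, stood at 300 and 301 CPM against 303 and 298 CPM (list median 0.04).

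Many memory and activation genes were lower: 15 of 24 fell and none rose, with 10 of the 15 also passing without the mouse block and a list median of -1.36. Both the 15 and the 10 include S100a4. That gene stood at 1.32 and 3.16 CPM in the KO FoxP3-CD25- libraries and at no more than 0.640 CPM in any other library. S100a4 entered the test through that group alone, so no weight is put on its call. Cd44 (chr2:102811141-102901665, - strand), the hyaluronan receptor used to tell memory from naive T cells, was counted at 17.9 and 16.1 CPM against 148 and 157 CPM. Both FoxP3+CD25- libraries were far below both non-Treg libraries (log2 fold change -3.17 ± 0.11, FDR = 2.2e-07). Itgb1, the integrin beta-1 chain of memory cells, was counted at 148 and 123 CPM against 745 and 1130 CPM with no overlap (log2 fold change -2.78 ± 0.16, FDR = 6.2e-06). Ahnak, a large scaffold protein, was counted at 249 and 239 CPM against 950 and 1095 CPM and fell in both mice (log2 fold change -2.07 ± 0.09, FDR = 6.1e-07). The calcium-binding S100 genes fell too, S100a6 by a log2 fold change of -3.57 and S100a11 by -1.21, as did Lgals1 (-1.50), which encodes galectin-1, Vim (-0.75), the intermediate filament vimentin, and Il2rb (-0.95), the beta chain of the IL-2 and IL-15 receptors (FDR = 0.067 without the mouse block).

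Naive and quiescence genes leaned the other way. Of 20 tested, Satb1, Bach2, Lef1, Ly6c1 and Dapl1 rose and Tcf7 fell, and the median was 0.24, but none of the 6 passed without the mouse block. Bach2, a repressor that keeps T cells from effector fates, was counted at 219 and 217 CPM against 139 and 157 CPM. The groups did not overlap (log2 fold change 0.56 ± 0.08, FDR = 0.0021, and FDR = 0.053 without the mouse block). Lef1, a factor of naive T cells, was counted at 652 and 630 CPM against 546 and 454 CPM and Tcf7, its relative TCF-1, at 1626 and 1740 CPM against 2038 and 2084 CPM. Lef1 was the higher in FoxP3+CD25- cells of both mice (log2 fold change 0.37 ± 0.09, FDR = 0.044, and FDR = 0.39 without the mouse block, and 0.23 to 0.49 with 1 library left out) and Tcf7 the lower (log2 fold change -0.29 ± 0.08, FDR = 0.048, and FDR = 0.38 without the mouse block). Ccr7, which encodes a homing receptor of naive cells, stood at 418 and 415 CPM against 425 and 364 CPM and did not pass. Il7r, the receptor for the survival cytokine IL-7, stood at 1221 and 1100 CPM against 1013 and 904 CPM and missed the threshold (log2 fold change 0.28 ± 0.08, FDR = 0.062).

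Many Th1 and Th17 genes were lower in the FoxP3+CD25- cells. Of 18 Th1 genes, 11 fell and 1 rose, 7 of the 11 also without the mouse block, with a median of -1.35. Ifng, the Th1 cytokine, was counted at 0.808 and 0.547 CPM against 27.1 and 26.3 CPM. The FoxP3+CD25- libraries were near the floor and both non-Treg libraries well above it (log2 fold change -5.32 ± 0.36, FDR = 1.2e-05). Tbx21, which encodes the lineage factor T-bet, was counted at 1.13 and 1.42 CPM against 14.4 and 26.6 CPM (log2 fold change -4.02 ± 0.27, FDR = 1.3e-05), and Cxcr3, a chemokine receptor that T-bet switches on, at 12.6 and 9.85 CPM against 104 and 121 CPM (log2 fold change -3.35 ± 0.15, FDR = 6.1e-07). Neither gene's groups overlapped. Il18rap, Il12rb1 and Il18r1, chains of the receptors for IL-18 and IL-12, fell by log2 fold changes of -2.86, -1.15 and -0.90, the last not passing without the mouse block (FDR = 0.42). Gzmk, a granzyme, had 0 counts in both FoxP3+CD25- libraries against 21 and 77, at least 16.7-fold lower against the mean floor of the FoxP3+CD25- libraries, or 8.54-fold with the KO2 non-Treg library left out (FDR = 0.067 without the mouse block). Th17 genes fell as well, 6 of 8, with 2 of the 6 passing without the mouse block and a median of -1.42 with Il23r, 0 counts against 3 and 11, set at its bound of at least 2.39-fold lower. That bound rests on the KO2 non-Treg library, since without it Il23r is at 1.22-fold and the Th17 median at -1.35 (Il23r FDR = 0.4 without the mouse block). Rora, a factor of Th17 and innate-like cells, was counted at 39.6 and 28.7 CPM against 99.9 and 99.9 CPM (log2 fold change -1.57 ± 0.16, FDR = 2.4e-04). Of 9 Th2 genes, Il4ra rose and Ccr4 fell, the latter also without the mouse block (median 0.19, but 0.40 in KO1 and -0.31 in KO2). Gata3, the Th2 factor, stood at 136 and 111 CPM against 154 and 138 CPM and did not pass.

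Follicular helper genes and inhibitory receptors formed the list with the most calls that held without the block: 13 of 20 fell, 12 of them also without the mouse block, and none rose (median -1.37). Pdcd1 (chr1:94038305-94052553, - strand), which encodes the inhibitory receptor PD-1, was counted at 22.5 and 19.9 CPM against 61.0 and 73.8 CPM. The FoxP3+CD25- libraries were 3.20-fold below the non-Tregs, without overlap (log2 fold change -1.68 ± 0.15, FDR = 7.9e-05). Il21, the cytokine with which follicular helper cells drive germinal centres, was counted at 0.808 and 0.875 CPM against 23.3 and 35.8 CPM, near the floor in one group and above 20 CPM in the other (log2 fold change -5.15 ± 0.32, FDR = 6.6e-06). Cxcr5, the receptor that brings these cells into follicles, was counted at 11.2 and 11.6 CPM against 49.8 and 74.4 CPM (log2 fold change -2.46 ± 0.15, FDR = 6.6e-06). The groups were apart for Cxcr5 and for Tox2 (-2.89), Maf (-1.65) and Angptl2 (-4.30), of which Tox2 and Maf encode factors that act in this lineage. Bcl6, the lineage repressor itself, stood at 44.3 and 32.4 CPM against 45.8 and 39.4 CPM and did not pass (log2 fold change -0.17 ± 0.12, FDR = 0.59, and -0.27 to -0.05 with 1 library left out). Lag3, an inhibitory receptor that binds MHC class II, was counted at 4.53 and 6.24 CPM against 26.1 and 68.9 CPM (log2 fold change -3.11 ± 0.32, FDR = 2.4e-04). Its values differed between the 2 non-Treg libraries as well.

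**Figure D4:**
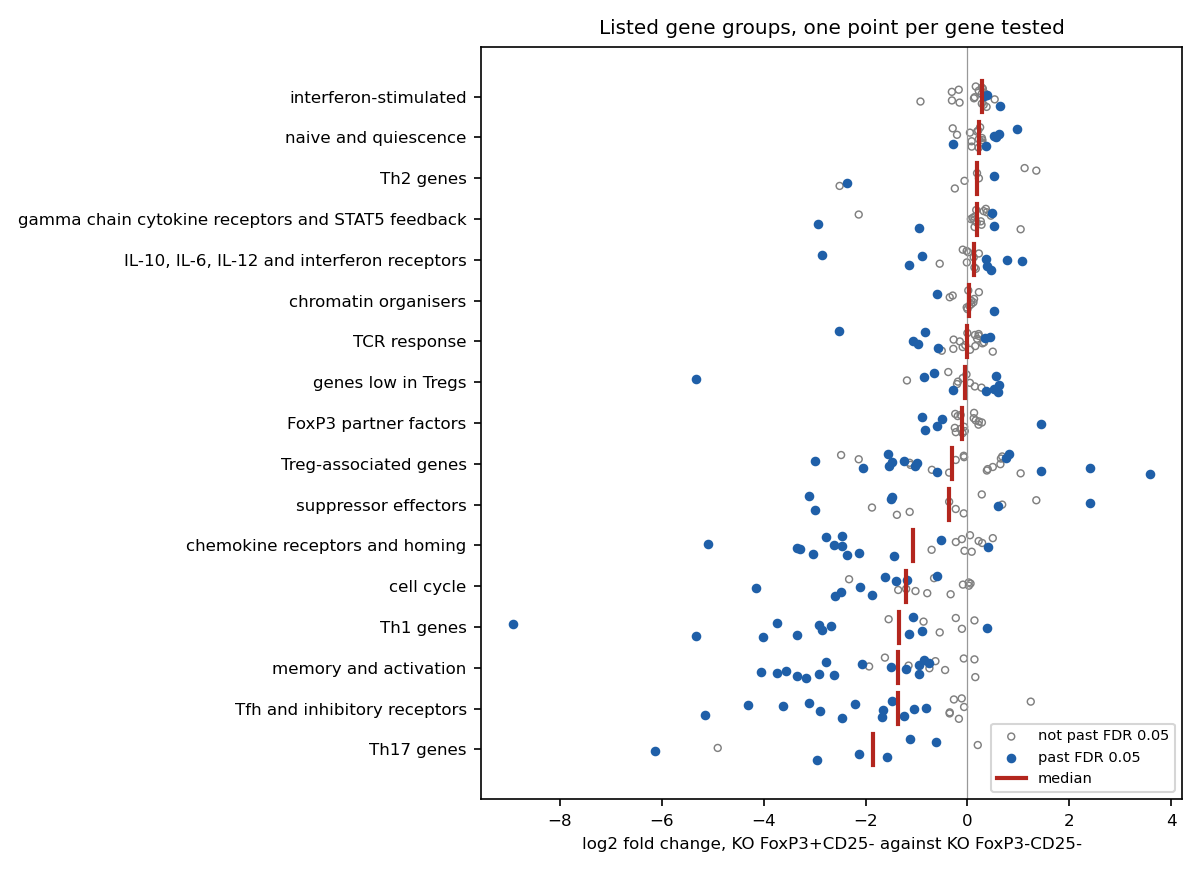
Log2 fold change of FoxP3+CD25- over FoxP3-CD25- cells for each tested gene of the listed groups, with filled points past FDR 0.05, open points not past it and a red bar at each list's median. The memory, Th1, Th17, follicular helper, homing and cell cycle lists have medians below -1, and Gzmk and Il23r, at 0 counts in both FoxP3+CD25- libraries, have fitted values that give no size.

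Receptors for chemokines and for homing to tissue fell in 12 of 22 genes tested, with 6 of them also passing without the mouse block, and Cxcr4 rose (median -1.07, within-mouse -0.43 in KO1 and -1.52 in KO2). Ccr4, which guides cells to skin and inflamed tissue, was counted at 7.27 and 5.25 CPM against 34.1 and 29.9 CPM with no overlap (log2 fold change -2.37 ± 0.23, FDR = 1.3e-04). Cxcr6, a receptor of tissue-resident cells, was counted at 3.23 and 2.30 CPM against 15.5 and 17.3 CPM and fell (log2 fold change -2.61 ± 0.27, FDR = 2.4e-04, and FDR = 0.071 without the mouse block). Ccr2, Ccr10, Cx3cr1 and Gpr15 also passed as lower, all under 12 CPM in every library compared. Of these only Ccr10 passed without the mouse block. Ccr10 stood at 3.14 and 2.37 CPM in the KO FoxP3-CD25- libraries and at no more than 0.709 CPM in any other library. It entered the test through that group alone, so no weight is put on its call, which is counted in the 12 and the 6. With 1 library left out Ccr2 ranged over -1.96 to -0.71. Cx3cr1, at 1 and 0 counts against 4 and 32, had fitted values of -8.10 to -2.20, which give no size where its 0-count library stands alone. Itga4, the alpha-4 integrin chain, was abundant at 916 and 1007 CPM against 1188 and 1579 CPM and fell by less (log2 fold change -0.52 ± 0.10, FDR = 0.014, and FDR = 0.27 without the mouse block). Cxcr4, the receptor for CXCL12, stood at 460 and 311 CPM against 323 and 256 CPM and rose within each mouse (log2 fold change 0.40 ± 0.09, FDR = 0.034, and FDR = 0.79 without the mouse block, and 0.25 to 0.53 with 1 library left out).

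Cytokine receptors moved in both directions. Of 17 receptors for IL-10, IL-6, IL-12 and interferons, Ifngr1, Ifngr2, Ifnar1, Il10ra and Il6st rose and Il12rb1, Il18r1 and Il18rap fell, with Ifngr1, Il12rb1 and Il18rap also passing without the mouse block (median 0.12). Ifngr2, the signalling chain of the interferon-gamma receptor, was counted at 89.2 and 81.6 CPM against 55.6 and 45.1 CPM. It was higher in each FoxP3+CD25- library than in either non-Treg library (log2 fold change 0.77 ± 0.15, FDR = 0.01, and FDR = 0.11 without the mouse block). Of 20 interferon-stimulated genes, 3 rose, Ifit2 and Irf9 among them, Ifit2 also without the mouse block, and none fell (median 0.28). Ifit2, an inhibitor of viral translation, was counted at 112 and 125 CPM against 72.6 and 78.7 CPM (log2 fold change 0.64 ± 0.09, FDR = 0.0012), and Irf7, a factor of the type I response, at 86.6 and 95.2 CPM against 83.2 and 81.7 CPM (log2 fold change 0.14 ± 0.11, FDR = 0.6, and 0.07 to 0.20 with 1 library left out). Ifit2 separated the groups and Irf7 did not pass. Among 19 receptors that share the common gamma chain and the STAT5 feedback genes, Il4ra and Socs3 rose and Il2rb and Il9r fell, with Il9r also passing without the mouse block (median 0.18). Il9r, the IL-9 receptor, was counted at 7.11 and 4.05 CPM against 43.8 and 38.7 CPM and fell (log2 fold change -2.93 ± 0.24, FDR = 4.5e-05), and Cish, a STAT5 target, stood at 56.9 and 45.7 CPM against 47.6 and 32.1 CPM (log2 fold change 0.38 ± 0.11, FDR = 0.085, and 0.25 to 0.52 with 1 library left out).

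Genes that respond to the T cell receptor showed no common direction. Of 23 tested, Nfkbia and Tnfaip3 rose and Egr2, Fosb, Irf4, Nfatc1 and Spry1 fell, with Fosb and Spry1 also passing without the mouse block, and the median was 0.00, with its sign set by the scaling (-0.0011 with TMM factors and 0.00037 with RLE factors). Nr4a1, an early reporter of receptor signalling, was counted at 431 and 211 CPM against 315 and 145 CPM and followed the mouse more than the population (log2 fold change 0.50 ± 0.15, FDR = 0.086). Spry1, an inhibitor of Ras signalling, was counted at 10.7 and 4.92 CPM against 47.1 and 38.5 CPM and fell in both mice (log2 fold change -2.52 ± 0.21, FDR = 4.5e-05). Irf4, a factor that scales with receptor signal, was counted at 36.9 and 17.0 CPM against 69.3 and 40.1 CPM. Its lower values were in the FoxP3+CD25- library of each mouse (log2 fold change -1.06 ± 0.12, FDR = 3.2e-04, and FDR = 0.49 without the mouse block). Of 18 dissociation and stress genes, Fosb alone passed (80.5 and 68.8 CPM against 129 and 164 CPM, log2 fold change -0.97 ± 0.12, FDR = 6.3e-04), with a list median of 0.08 and summed levels of 10076 and 7494 CPM against 9159 and 7223 CPM. The sums were higher in KO1 than in KO2 in both populations, and their part in the results was not tested.

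Some cell cycle genes were lower in the FoxP3+CD25- cells. Of 20 tested, 9 fell, among them Mki67, Top2a and Ccnb2, and none rose (median -1.20, within-mouse -1.44 in KO1 and -0.71 in KO2), but none of the 9 passed without the mouse block. Mki67, a marker of dividing cells, was counted at 15.4 and 6.67 CPM against 85.8 and 43.9 CPM. The KO1 libraries were the higher ones in both populations, and within each mouse the non-Tregs were higher (log2 fold change -2.59 ± 0.19, FDR = 2.5e-05, and FDR = 0.098 without the mouse block). Of the genes of DNA synthesis, Rrm2 (log2 fold change -1.40 ± 0.33, FDR = 0.034, and FDR = 0.47 without the mouse block) and Tyms (log2 fold change -1.20 ± 0.29, FDR = 0.039, and FDR = 0.16 without the mouse block) were among the 9, while Mcm2, Mcm3, Mcm5 and Pcna did not pass, with Pcna at 101 and 96.7 CPM against 105 and 90.0 CPM.

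Markers of other cells, apart from Ighm, were low in all 4 libraries, and some moved with the groups. The summed level of 10 NK cell genes, 9 of them in the table, was 5.50 and 7.11 CPM against 18.9 and 36.6 CPM, led by Eomes, and Ncr1 and Klra8 were at 0 in all 4 libraries. Eomes, shared by NK and cytotoxic T cells, was counted at 3.07 and 1.86 CPM against 10.4 and 19.4 CPM and fell (log2 fold change -2.69 ± 0.35, FDR = 9.4e-04, and -3.42 to -1.70 with 1 library left out), as did Klrb1c (0 and 5 counts against 12 and 30, -7.16 to -2.75 with 1 library left out, FDR = 0.068 without the mouse block), the NK1.1 antigen. Where its 0-count library stands alone for the group, the fitted value of Klrb1c gives no size. Zbtb16, which encodes PLZF of innate-like T cells, had 0 counts in both FoxP3+CD25- libraries against 8 and 20. That is at least 4.87-fold lower, or 3.25-fold with the KO2 non-Treg library left out. Zbtb16 stood at 1.32 and 2.63 CPM in the KO FoxP3-CD25- libraries and at no more than 0.248 CPM in any other library. It entered the test through that group alone, so no weight is put on its call. The 6 gamma delta and innate-like genes in the table summed to 19.9 and 18.2 CPM against 27.0 and 19.6 CPM, led by Trdc. Of 12 B cell genes, Cd22 fell (1.13 and 1.75 CPM against 20.5 and 17.4 CPM, log2 fold change -3.63 ± 0.29, FDR = 4.4e-05) while Ms4a1 was at 0 in all 4 libraries and the sum was 257 and 302 CPM against 246 and 292 CPM, nearly all from Ighm. The 5 CD8 T cell genes summed to 40.2 and 49.7 CPM against 39.5 and 47.0 CPM, with Prf1, the pore-forming perforin, the most abundant, and higher in FoxP3+CD25- cells (log2 fold change 0.60 ± 0.12, FDR = 0.016, and FDR = 0.077 without the mouse block), while Gzmk fell and the list median was -0.62. Macrophage genes summed to 31.5 and 23.4 CPM against 27.0 and 25.2 CPM, led by Csf1r, with Cd14 at 0. Dendritic cell genes summed to 8.89 and 8.86 CPM against 11.4 and 7.64 CPM, led by Cd74, with Cd209a at 0, erythroid and platelet genes to 5.17 and 6.46 CPM against 4.80 and 3.82 CPM, led by Itga2b, with Pf4 and Ppbp at 0, and neutrophil genes to at most 0.547 CPM, led by Ngp, with S100a8, S100a9, Ly6g, Retnlg and Cxcr2 at 0. None of the tested macrophage, dendritic, erythroid or platelet genes passed. The part of the NK and innate-like T cells in the lower genes was not tested.

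The WT libraries, which share no sample with the KO comparison, give the difference between Tregs and non-Tregs in mice without the deletion. There 1564 genes were higher (11.3% of those tested) and 1070 lower (7.76%) in FoxP3+CD25+ than in FoxP3-CD25- cells, or 2634 in all, against 1504 without the mouse block. The CD25 gate and the genotype both differ between this comparison and that of the KO cells. Sex-linked genes differ too: the libraries of WT mouse 1 held 14487 and 16362 counts of Xist and 0 of Ddx3y, unlike those of WT mouse 2 and the KO mice. Of the 1564 WT Treg-higher genes, 84 (5.37%) rose and 225 (14.4%) fell in the KO comparison, against 1.85% and 3.85% of all genes tested. Their median log2 fold change was -0.08 against 0.01 over all genes, and -0.39 where the WT difference was at least 2-fold. Of the 1070 WT Treg-lower genes, 53 (4.95%) rose and 86 (8.04%) fell, with a median of 0.01. That median was -0.01 without KO2 FoxP3-CD25- and 0.04 without WT mouse 1. Both WT sets thus exceeded the shares over all genes in both directions. Read from the other side, 84 of the 255 higher genes (32.9%) were WT Treg-higher and 53 (20.8%) WT Treg-lower, while 225 of the 531 lower genes (42.4%) were WT Treg-higher and 86 (16.2%) WT Treg-lower. Foxp3 (3.59 in KO, 5.19 in WT), Ikzf4 (1.44 and 3.98), Coro2a (1.77 and 1.88) and Slc2a3 (0.89 and 1.40) were among those higher in both.

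The difference between these contrasts was tested directly, as the KO CD25- difference minus the WT Treg difference. It passed for 1917 genes (13.9%), 716 above and 1201 below the WT difference, and for 914 without the mouse block. The count was 1022 without KO1 FoxP3+CD25-, 890 without KO2 FoxP3+CD25-, 1147 without KO1 FoxP3-CD25-, 868 without KO2 FoxP3-CD25- and 2837 without WT mouse 1. Cd44 rose by 0.90 in WT Tregs and fell by a log2 fold change of -3.17 in KO FoxP3+CD25- cells, so that the difference was -4.06 ± 0.15 (FDR = 9.3e-08). Tiam1, an activator of the GTPase Rac, stood 2.61 higher in WT Tregs and fell here to 25.1 and 31.0 CPM against 96.1 and 134 CPM. The KO non-Treg libraries were the higher ones, and the difference from WT was -4.64 ± 0.15 (FDR = 9.3e-08). P2rx7, an ATP-gated channel, was counted at 51.4 and 50.7 CPM against 105 and 96.6 CPM and fell in KO FoxP3+CD25- cells (-0.98) where WT Tregs were higher (2.09). Ikzf2 differed likewise (-0.61 here and 4.09 in WT). In the other direction, Pde3b, a phosphodiesterase gene low in Tregs, was -3.53 in WT Tregs and 0.60 here, at 461 and 363 CPM against 305 and 240 CPM. Vipr1, the receptor for vasoactive intestinal peptide, was -3.53 in WT Tregs and 0.15 here (0.08 to 0.22 with 1 library left out), where it stood at 211 and 202 CPM against 187 and 187 CPM and did not pass. Dapl1 (-3.66 and 0.61) and Il7r (-1.54 and 0.28) were also low in WT Tregs and not lower in KO FoxP3+CD25- cells. The FoxP3+CD25+ cells of the KO mice, which share the gate with the WT Tregs and the genotype with the FoxP3+CD25- cells, stood between these values against their own non-Tregs, with log2 fold changes of -0.37 ± 0.10 for Cd44, 1.15 ± 0.10 for Tiam1, 1.05 ± 0.08 for P2rx7, 2.75 ± 0.11 for Ikzf2 and -2.70 ± 0.10 for Vipr1. From them to the FoxP3+CD25- cells, within the KO mice, Tiam1 differed by -3.18 ± 0.11 and Cd44 by -2.80 ± 0.11. The parts of gate, genotype and sex in the differences from WT were not tested.

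**Figure D5:**
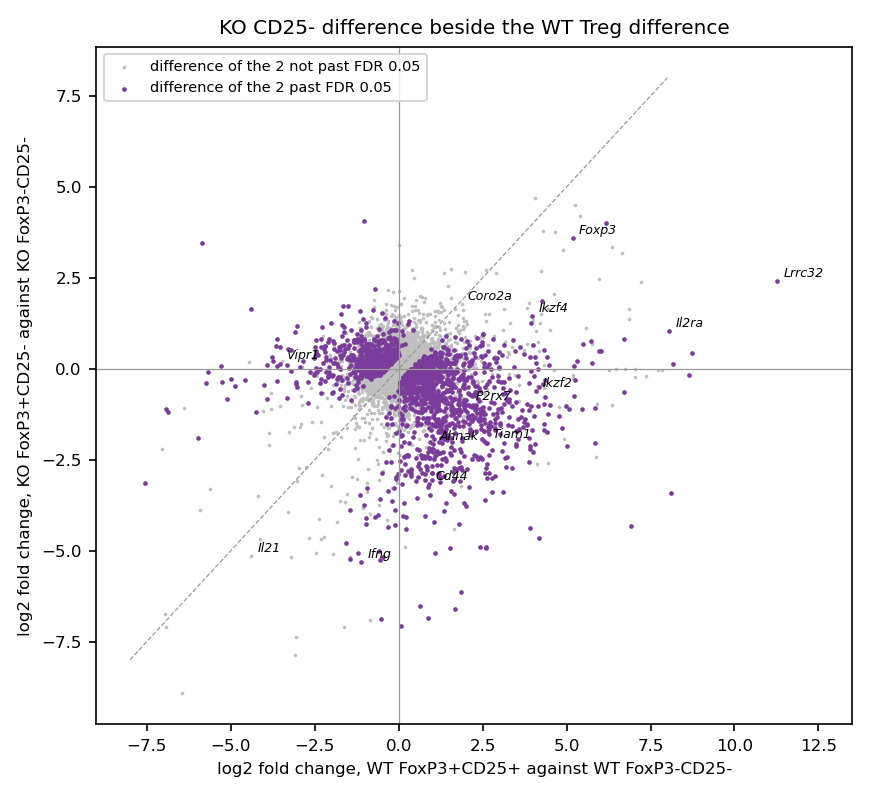
Log2 fold change of WT FoxP3+CD25+ over WT FoxP3-CD25- cells (horizontal) and of KO FoxP3+CD25- over KO FoxP3-CD25- cells (vertical), one point per gene tested, in purple where the difference between the contrasts passed FDR 0.05, with a dashed line where they are equal. Foxp3 and Coro2a lie to the upper right, Cd44, Ahnak and Tiam1 to the lower right, and Il2ra and Lrrc32 far to the right, with KO differences of 1.04 and 2.40.

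Genes known to be low in Tregs moved in both directions too. Of 18 tested, 5 rose (Bach2, Dapl1, Lef1, Pde3b and Satb1) and 4 fell (Id2, Ifng, Tcf7 and Themis), with a median of -0.06 (-0.13 in KO1 and 0.03 in KO2) and only Ifng passing without the mouse block. Themis, a regulator of T cell receptor signalling, was counted at 174 and 174 CPM against 279 and 270 CPM. Both mice had lower values in the FoxP3+CD25- cells (log2 fold change -0.66 ± 0.14, FDR = 0.016, and FDR = 0.073 without the mouse block). Id2, an inhibitor of E-protein factors, was counted at 109 and 70.8 CPM against 186 and 135 CPM, with the lower value in FoxP3+CD25- cells within each mouse (log2 fold change -0.85 ± 0.11, FDR = 0.0011, and FDR = 0.2 without the mouse block).

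Set beside the FoxP3+CD25+ Tregs of the same mice, a comparison that shares the FoxP3+CD25- libraries with the one against non-Tregs, 2090 genes passed (15.1%), and 967 without the mouse block. The order of the 3 KO populations differed by gene. For Cd44 the levels were 124 and 112 CPM in the FoxP3+CD25+ cells, so that the FoxP3+CD25- cells, at 17.9 and 16.1 CPM, were the lowest of the 3 populations. Pdcd1 stood at 71.7 and 71.3 CPM in the FoxP3+CD25+ cells and was lowest in the FoxP3+CD25- cells too. Coro2a was high in both FoxP3+ populations, with 399 and 405 CPM in the FoxP3+CD25+ cells. Satb1 was the highest in the FoxP3+CD25- cells and stood at 598 and 534 CPM in the FoxP3+CD25+ cells. Ikzf2 reached 944 and 848 CPM in the FoxP3+CD25+ cells, well above either CD25- population.

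The 12 lower genes of lowest p had log2 fold changes from -5.16 to -1.87, and all 12 also passed without the mouse block. Besides Cd44, Ahnak, Cxcr3, Itgb1, Tiam1, Cxcr5 and Il21 they were Gpm6b, Tbc1d4, Gng2, Synpo and Gprin3. Gpm6b, a membrane proteolipid known from neurons and glia, was counted at 1.94 and 4.81 CPM against 65.0 and 182 CPM. The groups were far apart although the non-Treg libraries differed from each other (log2 fold change -5.16 ± 0.19, FDR = 2.2e-07). Tbc1d4, a regulator of glucose transporter traffic, was counted at 50.8 and 43.4 CPM against 206 and 240 CPM (log2 fold change -2.25 ± 0.11, FDR = 1.8e-06), and Gng2, a G protein gamma subunit, at 12.3 and 13.6 CPM against 56.4 and 63.9 CPM (log2 fold change -2.22 ± 0.11, FDR = 2.1e-06). Neither overlapped between groups. Synpo, an actin-associated protein, fell by a log2 fold change of -3.05 and Gprin3, a G protein effector, by -1.87. Of the 121 genes named by rule that passed, 61 did so without the mouse block, and 61, 85, 55 and 53 did so without KO1 FoxP3+CD25-, KO1 FoxP3-CD25-, KO2 FoxP3+CD25- and KO2 FoxP3-CD25-.

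Promoters of 4 further genes are shown as members of the lists that moved, chosen after their values were seen: Bach2 for the naive genes, Cxcr3 and Ifng for the Th1 genes and Ccr4 for homing. All 4 hold a motif match, whereas 65 of the 100 genes named by rule that have a window, out of 132, hold none of the 4 motifs. Shares of the motifs among the 255 higher and the 531 lower genes are void and not given, since 71.0% and 75.9% of these genes have a window in the table. The Bach2 window (chr4:32417185-32417484, + strand) and the Ifng window (chr10:118440796-118441095, + strand) each held 1 match to TTCNNNGAA, the Cxcr3 window (chrX:101734098-101734397, - strand) held 2 to TGTGGT, and the Ccr4 window (chr9:114496495-114496794, - strand) 1 to TGACTCA, in capitals. The sequences are from RefSeq, GRCm38.p6, written 5′ to 3′ on the strand of the gene.
Bach2: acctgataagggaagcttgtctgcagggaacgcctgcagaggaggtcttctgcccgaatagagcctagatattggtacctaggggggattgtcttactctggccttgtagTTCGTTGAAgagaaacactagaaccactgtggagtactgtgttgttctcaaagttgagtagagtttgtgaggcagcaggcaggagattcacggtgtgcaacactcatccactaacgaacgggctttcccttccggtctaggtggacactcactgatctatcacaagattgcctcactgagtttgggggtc
Cxcr3: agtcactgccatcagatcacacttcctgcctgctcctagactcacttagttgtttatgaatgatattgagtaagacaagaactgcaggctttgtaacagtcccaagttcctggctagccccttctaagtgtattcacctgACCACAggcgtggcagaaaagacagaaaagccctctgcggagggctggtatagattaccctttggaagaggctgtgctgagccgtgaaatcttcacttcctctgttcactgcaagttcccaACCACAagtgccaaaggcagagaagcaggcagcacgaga
Ifng: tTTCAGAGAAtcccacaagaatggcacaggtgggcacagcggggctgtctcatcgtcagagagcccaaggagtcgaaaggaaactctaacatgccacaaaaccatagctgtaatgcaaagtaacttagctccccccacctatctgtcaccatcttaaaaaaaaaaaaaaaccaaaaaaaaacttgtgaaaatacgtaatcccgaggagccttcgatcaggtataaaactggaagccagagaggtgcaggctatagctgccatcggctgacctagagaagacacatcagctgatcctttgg
Ccr4: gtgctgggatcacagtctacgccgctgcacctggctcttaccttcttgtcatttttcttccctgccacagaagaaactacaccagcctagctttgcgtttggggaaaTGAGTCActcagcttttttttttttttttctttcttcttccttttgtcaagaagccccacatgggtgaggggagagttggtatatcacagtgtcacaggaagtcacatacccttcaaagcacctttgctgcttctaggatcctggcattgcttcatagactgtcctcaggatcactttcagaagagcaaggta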

How the data were processed

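RNA of sorted spleen CD4+ T cells was measured in 10 libraries, 2 mice per group. The deposited files hold counts per gene, made by the authors with HISAT2 2.1.0 and HTSeq 0.11.1 on mm10 (GRCm38), with replicates kept apart and strand not stated. Tallies that name no gene held 71.5% to 74.0% of each file's sum and were left out of totals. Of 48321 symbols, 28262 had a count and 13796 passed edgeR's filter (minimum count 10). Counts were TMM-normalised and tested with edgeR 4.0.16 (quasi-likelihood, two-sided, mouse block plus population within genotype, all 10 libraries, R 4.3.3, limma 3.58.1), with Benjamini-Hochberg FDR 0.05; 3 residual degrees of freedom remained and the biological coefficient of variation was 0.0872. Total counts ranged from 6094952 to 12410064.

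The mouse block follows from the libraries of a number coming from 1 mouse, as the labels imply. Deviations from the group mean of same-numbered libraries correlated at r = 0.445 for FoxP3+CD25- with FoxP3-CD25-, 0.433 and 0.421 for the other KO pairs and 0.303 for WT, across 13796 genes. Genes named in the text are Foxp3, Il2ra, Satb1, Pdcd1, Cd44 and Cd4, the 12 higher and 12 lower genes of lowest p with the same sign in both mice, the 5 of lowest p in each direction of the difference from WT, list members that passed, markers of other cells at 0, and 5 genes on each side of Foxp3; list members that did not pass and are named, and the genes of the closing observations, were chosen after their values were seen. Members, lists and rules were chosen with earlier results of these data known. Gene positions are from GENCODE M21, matched by symbol. Alternatives were another filter, RLE factors, library size alone, DESeq2 1.42.0, edgeR's likelihood ratio and legacy tests, fewer libraries, no replicate block, leaving out libraries, and stricter thresholds. Scripts were tested on simulated data. Splicing, protein and flow cytometry were not analysed here. A few members of the listed gene groups are not reported here by name, and the group tallies and medians include them.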

Additional observations from a re-analysis of the deposited data

Results flagged for a closer look

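The test of the difference between the KO FoxP3+CD25- contrast and the WT Treg contrast passed for 1917 genes, and for 914 without the mouse block. Genotype and gate both differ between these contrasts, and the sex-linked genes of WT mouse 1 differ from those of the other mice. Of the 10 genes of lowest p, 5 in each direction, those below the WT difference were Ikzf2, with a difference of the log2 fold changes of -4.70, Tiam1 (-4.64), Cd44 (-4.06), Ahnak (-3.10) and P2rx7 (-3.08). Those above it were Dapl1 (4.27), Pde3b (4.12), Vipr1 (3.68), Prf1 (3.10) and Il7r (1.82). Cd44, Ahnak, Tiam1, Ikzf2 and P2rx7 were higher in WT Tregs and lower in KO FoxP3+CD25- cells, each against its own non-Tregs, and the other 5 were lower in WT Tregs without falling in the KO cells.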

How the results depend on the processing

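The 786 genes that differed between KO FoxP3+CD25- and FoxP3-CD25- cells kept their sign under every alternative tried except for 1 gene without KO2 FoxP3+CD25-. Their number was 489 with DESeq2, 1905 with the 6 KO libraries alone and 2107 with the 4 libraries alone, both with the replicate block, 388 at FDR 0.01 and 370 at a fold change of at least 2, and 141 to 1907 with libraries left out. With no replicate block it was 230 over all 10 libraries and 248 over the 4 compared. Library size alone gave 215 higher and 548 lower genes. Against FoxP3+CD25+ cells, 2090 became 1220 with DESeq2, 3778 with the 6 KO libraries, 967 with no block, 1120 at FDR 0.01 and 890 at 2-fold. The WT count of 2634 became 1592, 1504, 1629 and 1139 with DESeq2, no block, FDR 0.01 and 2-fold, and the 1917 genes that differ from the WT contrast became 1229, 914, 1079 and 1146, and 868 to 2837 with libraries left out. Il2ra passed at 1.04 under the likelihood ratio test (FDR = 0.0015) and with the 6 KO libraries, at 1.07 with the 4 libraries alone, not with DESeq2 (FDR = 0.53) or with no block (FDR = 0.16 and 0.22), and ranged from 0.52 to 1.67 with libraries left out. Satb1 did not pass at 0.52 with no block, over 10 or 4 libraries, or at 0.47 to 0.57 with libraries left out. The median of WT Treg-higher genes was -0.39 where members differed at least 2-fold, and that of WT Treg-lower genes -0.085 there and -0.012 to 0.042 with libraries left out. Of the genes rerun, those that did not pass and changed sign with a library left out were Ppp1r3f (-0.20 to 0.083), Gm14703 (-3.67 to 3.42), Prickle3 (-0.18 to 0.20), Ctla4 (-0.81 to 0.022), Izumo1r (-0.33 to 0.17), Mcm2 (-0.070 to 0.11), Mcm3 (-0.35 to 0.13), Mcm5 (-0.060 to 0.17), Pcna (-0.070 to 0.11), Tgfb1 (-0.17 to 0.027) and Ctcf (-0.018 to 0.024). Ctcf also stood at -0.0012 with the CPM filter, -0.018 with library size alone and -0.0042 with the 6 KO libraries. The median of all genes was -0.013 with library size alone, and that of the T cell receptor response genes 0.00037 with RLE factors. In the 250 bases before the start alone, 3.17%, 14.0%, 7.02% and 4.46% of promoters held the forkhead, Runx, STAT and AP-1 letters. Fits with fewer libraries have fewer samples, and the cause of the other shifts was not tested. The fits without WT mouse 1, whose sex-linked genes differ from the other mice, and the alternatives for the contrasts with FoxP3+CD25+ cells of the same genotype were chosen after seeing the data. With 2 mice, differences between animals are poorly known, and a lone library was assumed to vary like the other groups. Levels under 0.328 to 0.496 CPM, the floors of the 4 libraries, were not measurable. Single libraries of the FoxP3+CD25+ groups were not left out.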

Other observations

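GTPases of families with interferon-induced members, and caspases of inflammasome signalling, were looked at after their values were seen. All 7 immunity-related GTPases tested, of a family with members that guard vacuoles against intracellular pathogens, rose in the FoxP3+CD25- cells (median log2 fold change 0.70). Only 1 of the 7 passed without the mouse block. Irgm1 was counted at 237 and 261 CPM against 173 and 167 CPM and Tgtp2 at 55.9 and 76.6 CPM against 34.9 and 46.9 CPM. The FoxP3+CD25- library was the higher one in each mouse for both genes (Irgm1 log2 fold change 0.55 ± 0.09, FDR = 0.0033; Tgtp2 log2 fold change 0.70 ± 0.10, FDR = 0.0019, and FDR = 0.21 without the mouse block). Irgc1 differed mainly between mice, at 58.2 and 3.39 CPM against 33.7 and 1.71 CPM (FDR = 0.93 without the mouse block). Of 11 guanylate-binding proteins tested, a related family, 5 rose (Gbp4, Gbp5, Gbp6, Gbp7 and Gbp8) and Gbp2b fell, none of them passing without the mouse block (median 0.38). These genes are close copies of each other, so reads could be split among them and single values are uncertain.

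Casp1 and Casp4, the caspases that cut gasdermin D in inflammasome signalling, moved the other way. Casp1 was counted at 4.36 and 10.3 CPM against 27.1 and 48.6 CPM and Casp4 at 3.88 and 4.70 CPM against 14.6 and 32.4 CPM. Both genes were lower in both FoxP3+CD25- libraries than in either non-Treg library (Casp1 log2 fold change -2.37 ± 0.16, FDR = 1.5e-05, and FDR = 0.064 without the mouse block; Casp4 log2 fold change -2.47 ± 0.22, FDR = 7.4e-05). In WT Tregs both were higher than in WT non-Tregs, with log2 fold changes of 0.66 and 0.89.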
